A study of Mus musculus with 12 samples.

Results

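The oligoadenylate synthetase (OAS) genes described here are Oas1a, Oas1b, Oas1g, Oas2, Oas3, Oasl1 and Oasl2, 7 of the 23329 genes listed, chosen by their symbols. They were measured by mRNAseq in primary cultures of small intestinal cells, labelled myofibroblasts and called stroma here, from mice of the C57BL6/J background. The 4 groups, each with 3 libraries, were embryonic stroma given LPS, embryonic stroma given the vehicle PBS, adult stroma given LPS and adult stroma given PBS. Embryonic cultures came from pooled embryos at E14.5, and all cells were used at passage 2 or 3. LPS, the lipopolysaccharide of E. coli O111:B4, was added for 6 h at 10 µg/µl as the labels give it. A culture of this kind is not a pure cell type, and its make-up can differ from culture to culture.

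OAS enzymes bind double-stranded RNA and join ATP into 2'-5'-linked oligoadenylates, and these act as signals for the breakdown of viral and cellular RNA. The genes are classical targets of interferon, which cells make after sensing viral RNA or, through Toll-like receptors, bacterial products such as LPS. Oas1a, Oas1g, Oas2 and Oas3 encode synthetases, Oas1b is known for flavivirus resistance in wild mice and carries a premature stop in common laboratory strains, Oasl1 encodes an OAS-like protein without synthetase activity that restrains translation of Irf7 mRNA, and Oasl2 encodes an OAS-like protein with ubiquitin-like domains that retains the activity.

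All 7 genes lie on mouse chromosome 5 (build GRCm38.p6). Oasl2 and Oasl1 occupy chr5:114896926-114937911, and Oas2, Oas3 and the Oas1 genes form a cluster of 10 genes at chr5:120730333-120921648, 5792 kb away. Oas1b is annotated as a transcribed pseudogene, the other 6 as protein coding. Oas1b starts 95 bases from Oas1c, an Oas1 copy that runs the other way. The RefSeq promoter table for GRCm38.p6 (250 bases before to 50 after a start) held windows for 5 of the 7 genes, and had no entry for Oas1b and Oas2. The core of the interferon-stimulated response element, written here as GAAA, any 2 bases and GAAA again, was searched on both strands. It stood in the windows of 3 of the 5 genes, Oas1a, Oas1g and Oas3, and in 3.44% of all 32851 windows of 300 bases. It also stood just before the start of Oas1b, within the window of Oas1c. The 60 bases that hold these matches are shown 5′ to 3′ on the strand of each gene, from chr5:120907526-120907585 (minus strand) for Oas1a, chr5:120887614-120887673 (minus) for Oas1g, chr5:120812575-120812634 (plus) for Oas1b and chr5:120777685-120777744 (minus) for Oas3. Capitals mark the matches, and in the 3 Oas1 genes 2 matches overlap.
Oas1a: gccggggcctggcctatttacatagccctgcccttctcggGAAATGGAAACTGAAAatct
Oas1g: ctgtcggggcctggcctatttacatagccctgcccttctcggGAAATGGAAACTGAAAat
Oas1b: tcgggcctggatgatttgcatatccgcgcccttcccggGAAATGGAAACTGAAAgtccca
Oas3: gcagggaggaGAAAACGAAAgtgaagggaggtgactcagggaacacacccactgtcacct
The Oas1a and Oas1g stretches share an unbroken run of 56 bases, and each shares 19 with the Oas1b stretch. The windows of Oasl1 and Oasl2 held no match, which says only that these letters are not in those windows. The gamma-activated site TTCNNNGAA was present for Oas1a alone of the 5, against 8.30% of all windows, and the kappa B letters, GGG, any 2 bases and TTTCC, for none, against 1.63%.

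The libraries held 18850224 to 32672370 counts in genes. Summed levels of 10 stromal markers were 22587 to 41641 CPM (counts scaled to an equal library total) across the 12 libraries, and the defining markers of T and B cells were at or close to 0. Markers of macrophages were present, and most so in embryonic cultures. The 12 macrophage genes on the list summed to 198, 393 and 2318 CPM in embryonic PBS libraries 1, 2 and 3 and to 162, 819 and 1748 CPM in the LPS libraries. In adult stroma the sums were 161, 18.6 and 44.0 CPM with PBS and 174, 15.7 and 42.6 CPM with LPS. Each of the 12 macrophage genes was above 3 counts in at least 1 library of each group, but not in every adult library. Aif1, for example, had 23, 3 and 3 counts in adult LPS libraries. Markers of endothelial cells summed to 8.31 to 34.7 CPM in embryonic libraries and to 13.9 to 1750 CPM in adult libraries. In bulk RNA, fewer cells of a type and less RNA per cell cannot be told apart.

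In embryonic stroma, LPS-treated libraries lay above PBS-treated libraries for each of the 7 genes, without overlap, where 7.58% of the 13038 tested genes did so. The mean CPM was 11.2-fold higher for Oas1a at the low end and 754-fold higher for Oasl1 at the high end. Fitted without regard to culture, 4 of the 7 passed the test (adjusted p under 0.05 and a log2 fold change of at least 2, edgeR), against 1.87% of all tested genes, and with LPS and PBS libraries of one number treated as one culture all 7 passed, against 3.02%. The filter on low counts asked for over 0.5 CPM in all libraries of a group. Oas1g and Oas2 met it only in embryonic LPS libraries and Oas1a, Oas3 and Oasl1 only in LPS libraries, so these counts describe the genes and are not support for a response. Oasl2 met it in all 4 groups and Oas1b in both LPS groups and in adult, not embryonic, PBS libraries. Both genes passed in both fits. With no filter 4 of the 7 passed, beside 1.29% of 18810 genes. These replicate numbers could be read as cultures because same-numbered libraries deviated together from their group means.

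**Figure D1:**
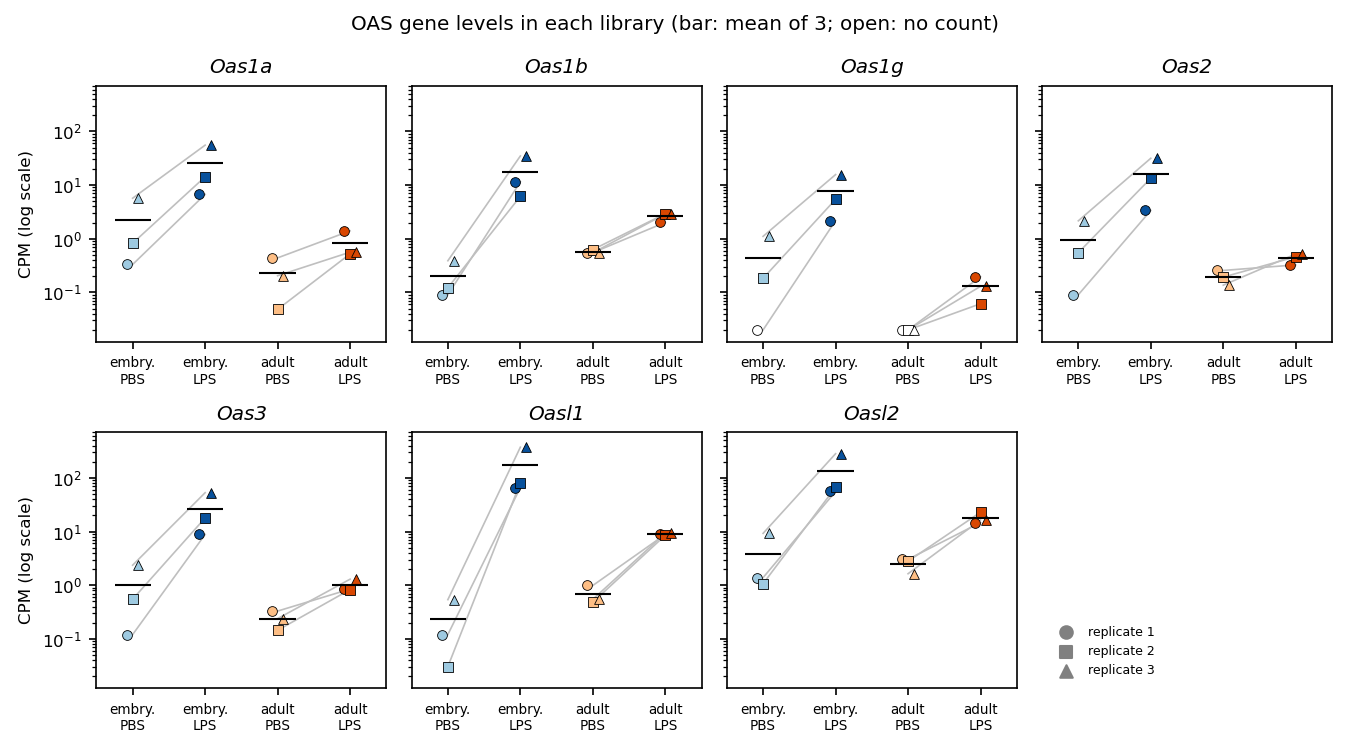
CPM (log axis) of the 7 OAS genes in each of the 12 libraries; shapes are replicates 1 to 3, grey lines join LPS and PBS libraries of one number, bars are group means, and open symbols at the bottom are libraries without a count. For the OAS genes the LPS points lie above the PBS points in both stages, and the embryonic LPS points lie above the adult LPS points.

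Among the synthetases, Oas1a was at 0.331, 0.823 and 5.68 CPM in embryonic PBS libraries 1, 2 and 3 and at 6.70, 14.3 and 55.3 CPM in the LPS libraries. Library 3 was the highest in both groups, and the highest PBS value came close to the lowest LPS value. The fold from PBS to LPS within a culture was 20.2, 17.3 and 9.74, a log2 fold change of 3.48 ± 1.11 (SE) and an adjusted p of 0.182 without the block, and 3.75 with an adjusted p of 3.93e-05 with it.

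Oas1g, the Oas1 gene closest to Oas1a in its printed promoter letters, had 0, 6 and 37 counts with PBS, or 0, 0.183 and 1.11 CPM. With LPS it reached 2.17, 5.42 and 15.7 CPM, again highest in library 3. The log2 fold change was 4.16 ± 1.25 (adjusted p = 0.180), and 4.43 with the block (adjusted p = 0.00271). Oas1a and Oas1g share sequence: 47.6% of the 75-base windows of Oas1a transcripts also occur in Oas1g and 36.9% of those of Oas1g occur in Oas1a, so uniquely mapped reads undercount both, and the split between them is uncertain. The other 5 genes have no such shared windows.

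Oas2 was at 0.0904, 0.549 and 2.15 CPM with PBS and at 3.37, 13.4 and 31.5 CPM with LPS. Its log2 fold change was 4.10 ± 1.00 (adjusted p = 0.0653), and 4.29 with the block (adjusted p = 3.48e-05). Oas3, which encodes the largest of the synthetases, was at 0.121, 0.549 and 2.36 CPM with PBS and at 8.83, 17.9 and 52.9 CPM with LPS. It passed the test in both fits, with a log2 fold change of 4.71 ± 0.96 (adjusted p = 0.0285) and of 4.91 with the block (adjusted p = 1.69e-05). For each of these genes library 3 was the highest with either treatment, and the 3 LPS libraries lay above the 3 PBS libraries.

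Oas1b had little signal in the embryonic PBS libraries, with 3, 4 and 13 counts (0.0904, 0.122 and 0.389 CPM). With LPS it was at 11.5, 6.15 and 34.8 CPM, so that here the order of libraries 1 and 2 was turned round. Its log2 fold change of 6.41 ± 0.77 passed (adjusted p = 0.00267; with the block 6.39, adjusted p = 2.05e-06).

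The OAS-like genes reached the highest levels. Oasl1 had 4, 1 and 18 counts with PBS (0.121, 0.0305 and 0.538 CPM) and 65.9, 81.0 and 373 CPM with LPS. The log2 fold change of Oasl1 was 9.52 ± 1.00 (adjusted p = 0.00162; with the block 9.55, adjusted p = 2.10e-07), the largest of the 7. Oasl2, already at 1.39, 1.07 and 9.24 CPM with PBS, was at 55.7, 66.9 and 282 CPM with LPS, a fold within cultures of 40.2, 62.7 and 30.5. Its log2 fold change was 5.11 ± 0.95 (adjusted p = 0.0185; with the block 5.31, adjusted p = 4.91e-06). Without the block, the calls of Oas3 and Oasl2 were lost when embryonic PBS library 1 or 2 was left out, and that of Oas3 also without embryonic LPS library 3, adult LPS library 1 or 3, or adult PBS library 3. The adjusted p in these fits ran from 0.0507 to 0.106. The calls of Oas1b and Oasl1 were kept with any 1 library left out.

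Embryonic library 3 had the highest value of all 7 genes with PBS and with LPS, and it also had the highest value of 12 of 12 macrophage genes with PBS and 11 of 12 with LPS. Its Oas1a level was 17.1 times that of library 1 with PBS and its Oas2 level 23.8 times, beside a ratio of 11.7 for the macrophage sum, while its Oas1b level was 4.30 times that of library 1. With LPS none of the 12 macrophage genes was called without the block. With it, in embryonic stroma, Cx3cr1 was called lower (log2 fold change -2.82, adjusted p = 0.00155), while Ptprc at 1.84 (adjusted p = 0.00283), Adgre1 at 1.08 (adjusted p = 0.0313) and Fcer1g at 1.07 (adjusted p = 0.0233) passed on the p alone, and none was called in adult stroma. Without culture 3, the counts of called genes were 5 of 7 without the block, beside 1.45% of all genes tested, and 7 of 7 with it, beside 2.85%, and the log2 fold change was 9.81 for Oasl1 and 4.13 for Oas1a. The part of the macrophage content in these levels was not tested.

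**Figure D2:**
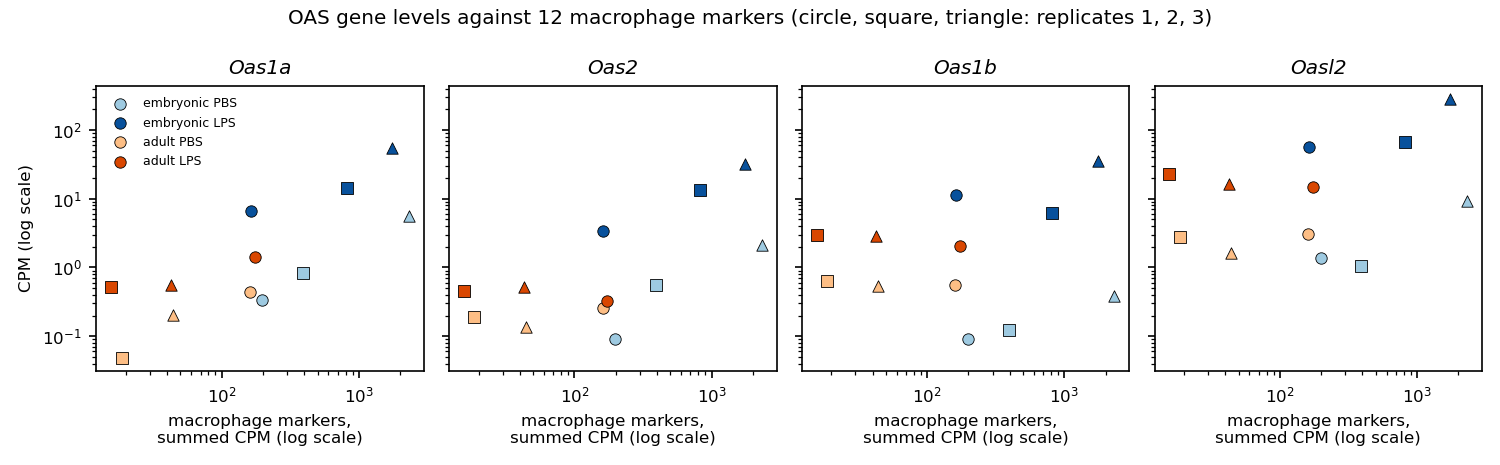
CPM of Oas1a, Oas2, Oas1b and Oasl2 (log axis) against the summed CPM of 12 macrophage markers (log axis) in the 12 libraries, with color for the group and shape for the replicate. Embryonic library 3 is at the far right with the highest value of each gene for its treatment. The macrophage sums of adult LPS libraries 1, 2 and 3 are 174, 15.7 and 42.6 CPM. In that order Oas1a sits at 1.40, 0.523 and 0.562 CPM and Oas2 at 0.326, 0.461 and 0.519 CPM. Oas1b sits at 2.02, 2.92 and 2.90 CPM and Oasl2 at 14.7, 22.9 and 16.4 CPM.

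In embryonic stroma the fold changes varied less between cultures than the PBS levels did. Over the 7 genes, the SD of the log2 difference between LPS and PBS within embryonic cultures was 0.35 to 0.69 (log2 CPM with a prior count of 2), while the SD of log2 CPM among the PBS libraries was 0.81 to 2.05. In adult stroma this was not so: the SD of the log2 difference was 0.26 to 0.62, and it was below the SD among PBS libraries for Oas1a alone. Each gene was higher with LPS in all 3 embryonic and all 3 adult cultures, but Oas1g lay near the floor in adult stroma.

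In adult stroma the LPS libraries also lay above the PBS libraries for all 7 genes, without overlap, where 9.1% of tested genes did so; for Oas1g this rested on 2 to 6 counts against none. The differences were smaller than in embryonic stroma for 6 of the 7, and Oas1g had no count in any adult PBS library. Without the block none of the 7 passed the test in edgeR, against 0.422% of tested genes. An unadjusted p under 0.05 was found for 3, beside 727 of the 13038 tested genes. DESeq2 called 3, beside 1.3% of genes. With the block 4 passed, Oas1b, Oas3, Oasl1 and Oasl2, against 1.6%. Oas3 and Oasl1 met the filter on low counts only in LPS libraries, so this count too describes the genes.

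Oasl1 was at 0.989, 0.482 and 0.545 CPM in adult PBS libraries and at 8.86, 8.55 and 9.33 CPM with LPS, 3 values that nearly coincided. Its log2 fold change was 3.71 ± 0.80 (adjusted p = 0.0874; with the block 3.71, adjusted p = 6.02e-05). Oasl2 was at 3.04, 2.79 and 1.64 CPM with PBS and at 14.7, 22.9 and 16.4 CPM with LPS, a fold within cultures of 4.84, 8.19 and 10.0. The log2 fold change of Oasl2 was 2.86 ± 0.88 (adjusted p = 0.345; with the block 2.85, adjusted p = 0.000400).

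Oas1b was at 0.550, 0.626 and 0.545 CPM with PBS and at 2.02, 2.92 and 2.90 CPM with LPS. The fold within cultures was 3.67, 4.66 and 5.31, and the log2 fold change 2.18 ± 0.65 (adjusted p = 0.305; with the block 2.17, adjusted p = 0.00118). Oas3 was at 0.330, 0.145 and 0.239 CPM with PBS and at 0.847, 0.830 and 1.30 CPM with LPS. Its blocked log2 fold change of 2.02 lay just past the fold threshold (adjusted p = 0.0264).

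The remaining synthetases stayed low in adult stroma. Oas1a was at 0.440, 0.0482 and 0.205 CPM with PBS and at 1.40, 0.523 and 0.562 CPM with LPS, and its blocked log2 fold change of 1.81 had an adjusted p of 0.0380 but was under the fold threshold. Oas2 was at 0.256, 0.193 and 0.136 CPM with PBS and at 0.326, 0.461 and 0.519 CPM with LPS (log2 fold change 1.14, adjusted p = 1; with the block 1.12, adjusted p = 0.231). Oas1g had 6, 2 and 3 counts in the adult LPS libraries, at or close to the floor of 3 counts per library, so a response was not measurable at this depth.

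Adult library 1 had the highest value of 12 of 12 macrophage genes with either treatment. With PBS it was also the highest for Oas1a, Oas2, Oas3, Oasl1 and Oasl2. With LPS it was the highest for Oas1a and Oas1g, and library 2 or 3 was the highest for the other 5 genes. The part of the macrophage content in these orders was not tested. Summed endothelial markers ran from 13.9 to 1681 CPM over adult LPS libraries. In the same libraries the highest value of Oasl1 was 1.09 times the lowest (8.55 to 9.33 CPM). This ratio was 1.45 for Oas1b, 1.55 for Oasl2, 1.56 for Oas3, 1.59 for Oas2 and 2.68 for Oas1a. For Oas1g, at 2 to 6 counts, it was 3.18. The part of the endothelial content in these levels was not tested.

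**Figure D3:**
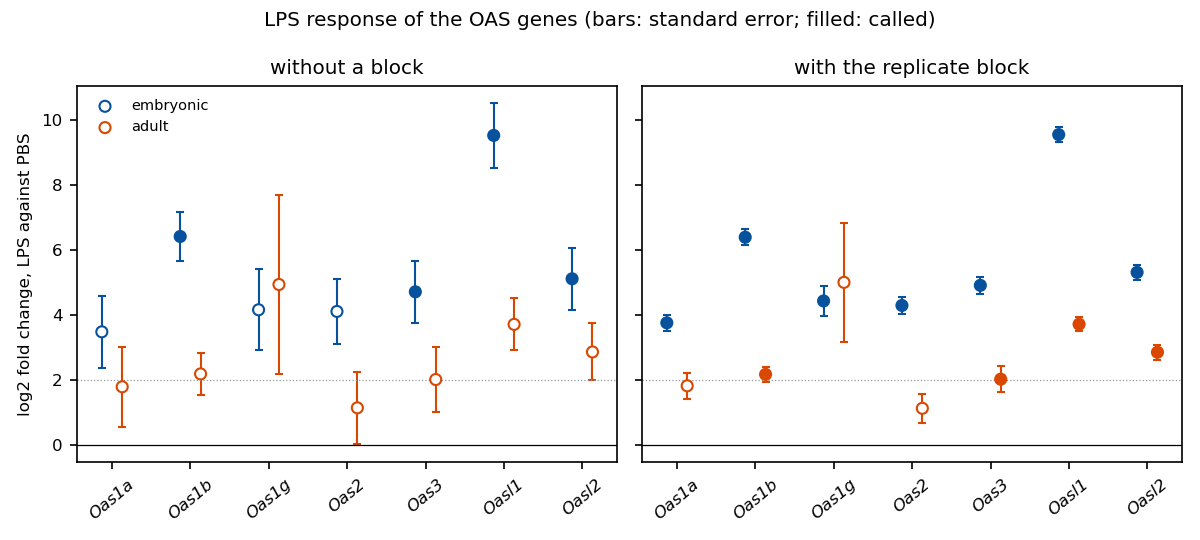
Log2 fold change of LPS against PBS for the 7 OAS genes in embryonic and adult stroma, without (left) and with (right) the replicate block; bars are standard errors, filled symbols passed the test, and the dotted line is the fold threshold of 2. Embryonic values lie above adult values for 6 of the 7 genes, from 9.52 against 3.71 for Oasl1 to 3.48 against 1.78 for Oas1a; the adult Oas1g value, fitted against PBS libraries without a count, is the exception.

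The size of the LPS response was compared between the stages with an interaction term. Without the block none of the 7 genes nor any other gene passed (0% of tested genes). An unadjusted p under 0.05 was found for 2 of the 7, beside 293 of the 13038 tested genes. DESeq2 called 2, beside 0.192% of genes. With the block 3 passed, against 0.798% of tested genes. The response in embryonic stroma exceeded that in adult stroma by 5.84 on the log2 scale for Oasl1 (adjusted p = 0.00119), by 4.22 for Oas1b (adjusted p = 0.00199) and by 2.46 for Oasl2 (adjusted p = 0.0175). For Oas2 and Oas3 the differences were 3.17 (adjusted p = 0.0655) and 2.89 (adjusted p = 0.0810), and for Oas1a 1.94 (adjusted p = 0.260). Without embryonic culture 3 the blocked fit called 5, beside 0.921% of genes, with Oas2 at 3.58 (adjusted p = 0.0437) and Oas3 at 3.32 (adjusted p = 0.0476), and the fit without a block called 2, Oas1b and Oasl1, beside 0.137%. Oas2 met the filter on low counts only in embryonic LPS libraries, and Oas3 and Oasl1 only in LPS libraries. These counts of called genes therefore describe the genes and are not support for a stage difference. The embryonic and adult values of Oas1g cannot be ranked, since its direction of difference depended on the fit and the libraries.

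Levels after LPS were higher in each embryonic library than in any adult library for all 7 genes, where 13.4% of tested genes did so. 5 of the 7 passed the test between stages, against 3.04% of tested genes higher in embryonic stroma. Of these 5, Oas2 met the filter on low counts only in embryonic LPS libraries and Oas1a, Oas3 and Oasl1 only in LPS libraries. The count therefore describes the genes and is not support for a stage difference. The log2 difference was 5.20 for Oas2 (adjusted p = 0.0255), 4.93 for Oas1a (adjusted p = 0.0450), 4.75 for Oas3 (adjusted p = 0.0249), 4.28 for Oasl1 (adjusted p = 0.0147) and 2.74 for Oas1b (adjusted p = 0.0352). Oas1g, at 5.87 (adjusted p = 0.0532), and Oasl2, at 2.90 (adjusted p = 0.0755), did not pass. Without culture 3 all 7 passed, beside 4.35% of genes in either direction, with Oasl2 at 1.73 and Oasl1 at 3.01. Without embryonic LPS library 3 alone, 1 passed (2.66% of genes), and without any 1 of the adult LPS libraries none did (at most 1.94%). Macrophage markers were higher in embryonic stroma too, with a median log2 difference of 4.41 over the 12 genes after LPS. Their part in the stage difference was not tested.

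With PBS the stages overlapped for 6 of the 7 genes. Oas1b was the exception, at 0.0904 to 0.389 CPM in embryonic and 0.545 to 0.626 CPM in adult stroma, where 11.9% of tested genes were lower in every embryonic library. None of the 7 passed (1.51% of tested genes were called higher and 2.57% lower in embryonic stroma). An unadjusted p under 0.05 was found for 2 of the 7, beside 2584 of the 13038 tested genes. DESeq2 called 2, beside 11.9% of all genes. The log2 difference of embryonic from adult stroma ran from 6.65 for Oas1g (adjusted p = 0.170) and 3.23 for Oas1a (adjusted p = 0.172) to -1.49 for Oas1b (adjusted p = 0.283) and -1.54 for Oasl1 (adjusted p = 0.436). Without embryonic culture 3, which had the most macrophage RNA, Oas1b and Oasl1 were called lower in embryonic stroma, at -2.39 (adjusted p = 0.0292) and -3.10 (adjusted p = 0.0169), beside 3.87% of genes called in either direction.

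Levels of different genes were compared as CPM per kb of exon. In embryonic PBS libraries Oas1a led, at 1.21 ± 1.57 CPM per kb (SD, n = 3), and Oasl1 was last, at 0.0881 ± 0.104 CPM per kb. With LPS the order began with Oasl1 at 66.4 ± 66.3 CPM per kb, followed by Oasl2 at 21.2, Oas1a at 13.5 and Oas1b at 8.77 CPM per kb, with Oas3, Oas2 and Oas1g between 3.31 and 3.76. The libraries of every pair of neighbours in both of these orders overlapped. In adult PBS libraries Oasl2 led at 0.391 CPM per kb, with Oas1b at 0.288 and Oasl1 at 0.258. Adult LPS libraries separated best: Oasl1 at 3.42 and Oasl2 at 2.82 CPM per kb overlapped, and Oas1b at 1.31, Oas1a at 0.439 and Oas3 at 0.140 each stood apart from the gene before and after it.

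Taken as shares of the summed CPM per kb of the 7 genes, which removes the level of the culture, Oasl1 made up 1.22% to 8.85% in embryonic PBS libraries and 51.7% to 56.0% in embryonic LPS libraries. The corresponding shares were 18.0% to 25.8% and 37.0% to 43.9% in adult stroma, so the LPS libraries were higher without overlap in both stages. Oas1a moved the other way in embryonic stroma, from 33.7% to 49.0% with PBS to 7.68% to 12.6% with LPS. Oas1b held 18.8% to 30.6% in adult PBS libraries but 3.17% to 8.69% in embryonic PBS libraries. The undercount of Oas1a and Oas1g makes their shares too low in every library. The embryonic PBS shares of Oasl1 rest on 4, 1 and 18 counts, with library 2 under the floor of 3 counts.

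**Figure D4:**
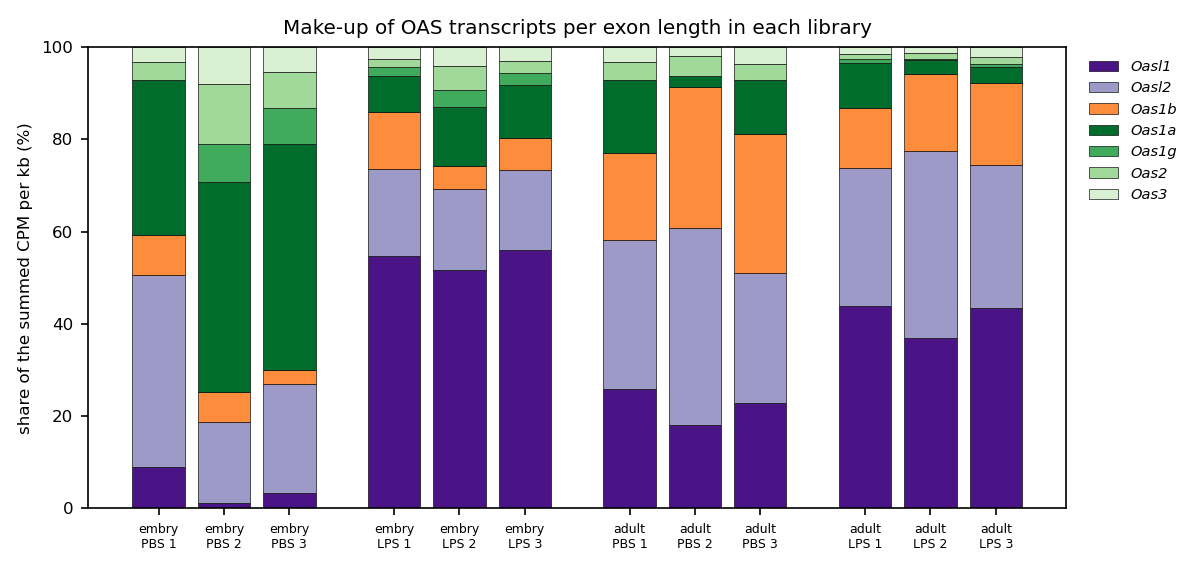
Share of each gene in the summed CPM per kb of exon of the 7 OAS genes (%, stacked bars from 0 to 100) in each library. Oasl1 takes 51.7% to 56.0% in embryonic LPS libraries and 1.22% to 8.85% in embryonic PBS libraries, where Oas1a takes 33.7% to 49.0%. The embryonic PBS shares of Oasl1 rest on 4, 1 and 18 counts.

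Of the other Oas1 copies in the cluster, Oas1c stood out from the rest, which were close to 0. Oas1c, which is not among the 7 and whose start faces that of Oas1b, was at 0.241, 0.701 and 1.55 CPM in embryonic PBS and at 3.61, 3.87 and 7.73 CPM in embryonic LPS libraries. This gave a log2 fold change of 2.60 ± 0.60 in embryonic stroma (adjusted p = 0.0488) and of 0.29 in adult stroma (adjusted p = 1), where PBS libraries were at 1.30 to 1.98 CPM and LPS libraries at 1.21 to 2.31 CPM. Per kb of exon, Oas1c was at 0.636 CPM per kb in adult PBS and 0.774 CPM per kb in adult LPS libraries. The embryonic call of Oas1c was kept with the block (2.73, adjusted p = 0.00127) and was lost without the block with another filter, with other size factors and with most of the single libraries left out. Oas1d, Oas1e, Oas1f and Oas1h had at most 2 counts in any library and were not tested.

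A list of 11 genes for sensing and handling double-stranded RNA and oligoadenylates was set beside the OAS genes. In embryonic stroma 3 of the 11 were called higher with LPS and none lower, beside 1.87% of tested genes called higher, and with the block 5, beside 3.02%. The called genes were the RNA sensors Ifih1 (MDA5) at a log2 fold change of 4.88 (adjusted p = 0.00306), Tlr3 at 3.38 (adjusted p = 0.0182) and Ddx58 (RIG-I) at 2.79 (adjusted p = 0.00650). The block added Dhx58 (LGP2) at 4.11 and the Z-RNA sensor Zbp1 at 4.99. Eif2ak2, the kinase PKR, and the RNA editor Adar passed on the p alone, at 1.77 (adjusted p = 0.0133) and 1.90 (adjusted p = 0.00816). Abce1, which recycles ribosomes, and Pde12, which breaks down oligoadenylates, were at -0.03 and 0.09 (adjusted p = 0.999 for both). In adult stroma none of the 11 was called without the block, beside 0.422% of tested genes. An unadjusted p under 0.05 was found for 3, beside 727 of the 13038 tested genes. DESeq2 called 1, beside 1.3%, and the block called 1, beside 1.6%, Zbp1 at 3.83 (adjusted p = 0.00440). Zbp1 met the filter on low counts only in LPS libraries, so its calls in either stage are not support for a response. In adult PBS libraries it had 4, 3 and 1 counts.

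The 12 genes of the interferon route ran from the ligand to its nuclear factors. Ifnb1, the gene of interferon beta, had no count in any PBS library, 38, 366 and 621 counts in embryonic LPS libraries and 34, 5 and 6 counts in adult LPS libraries. Against a floor of 3 counts in the PBS library of its own culture, it was at least 14.7-fold, 138-fold and 269-fold higher in embryonic cultures 1, 2 and 3, and at least 10.1-fold, 1.06-fold and 2.54-fold higher in the adult cultures. In embryonic stroma 7 of the 12 were called, with and without the block (beside 3.02% and 1.87% of tested genes): Ifnb1, Stat2, Irf9, Irf7, Irf1, Usp18 and Socs1. Ifnb1 met the filter on low counts only in embryonic LPS libraries, so its call is not support for a response. Stat2 and Irf9, which bind the interferon-stimulated response element in a common complex, had log2 fold changes of 4.23 and 2.47. In adult stroma 1 was called, beside 0.422%, Irf1 at 3.53 (adjusted p = 0.0425), and with the block 3, beside 1.6%, Ifnb1, Irf1 and Usp18. The Irf1 call without the block was lost when adult LPS library 1 or 3, embryonic PBS library 1 or any 1 of the adult PBS libraries was left out. The receptor genes Ifnar1 and Ifnar2 were at 0.93 (adjusted p = 0.0101) and 0.89 (adjusted p = 0.0740) in adult stroma, under the fold threshold.

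Genes whose levels followed those of each OAS gene most closely were found by the root mean square difference of centred log2 CPM over the 12 libraries, as a description. Oas1b lay closest to Isg15 (0.44) and Irf7 (0.48), Oasl1 to Ifit1 (0.52) and I830012O16Rik (0.66), and Oasl2 to Rtp4 (0.41) and Igtp (0.47). Oas1a lay closest to Ebi3 (0.58) and Aoah (0.62), Oas1g to Phf11 (0.47) and Gm5431 (0.55), Oas2 to Phf11 (0.53) and Rassf4 (0.59), and Oas3 to Batf2 (0.59) and Pyhin1 (0.60). The median over all tested genes was 2.31 to 3.63. Oas2 and Oas3 were each other's nearest gene of all, at 0.50, and Oas1a had Oas1g as its nearest, at 0.55. For Oas1b, Oasl1 and Oasl2, by contrast, the nearest gene of the 7 ranked 17, 26 and 18 among all tested genes.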

How the data were processed

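The authors mapped single-end 75-base stranded reads with STAR to mm10 (GRCm38.p6), discarded reads that mapped more than once or with over 1 mismatch, and deposited raw counts per gene symbol for each of the 12 libraries; the gene annotation is not given in the sources used here. Counts on the expected strand were used (the opposite strand held 1.14% to 1.98%), and the rows that name no gene were left out. These rows held reads outside genes or ambiguous between them (7.83% to 8.75%), reads mapped more than once (8.45% to 9.37%) and unmapped reads. Genes with over 0.5 CPM in all libraries of a group (13038 of 23329) were fitted with edgeR 4.0.16 in R 4.3.3 (quasi-likelihood test, TMM, one model of 4 groups, Benjamini-Hochberg adjustment over all tested genes). LPS responses were called at an adjusted p under 0.05 with a change of at least 2 on the log2 scale in either direction, other contrasts at an adjusted p under 0.05. The standard error is the absolute log2 fold change divided by the root of F.

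Replicate numbers come from the labels. Deviations from the group means correlated by 0.610 to 0.850 between same-numbered LPS and PBS libraries (13038 genes), so a fit with the number within stage as a block is given beside the first; contrasts between stages could not be fitted with it. The OAS genes were named by the rule of symbols, and for each gene the text names the nearest pair of other genes. The values of 2 genes are not reported here. The genes and lists were chosen with earlier results of these data known. The study gives the replicates as separate cultures but does not say which LPS and PBS libraries share one. Libraries that hold 3 counts have a floor of 0.0897 to 0.145 CPM, and floors cover counting error only. Alternatives were DESeq2 1.42.0, the likelihood ratio test, other size factors, filters and thresholds, either-strand counts, each stage alone and each library left out; leaving out embryonic culture 3 was added after the data were seen. The code was tested on simulated data.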

Additional observations from a re-analysis of the deposited data

Results flagged for a closer look

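In the fit with the replicate block, the response to LPS differed between embryonic and adult stroma by a test of the difference itself for 3 of the 7 OAS genes, 3 of the 11 genes of double-stranded RNA and 4 of the 12 genes of the interferon route, each with the larger response in embryonic stroma, beside 0.798% of the 13038 tested genes. The differences on the log2 scale were 5.84 for Oasl1, 4.22 for Oas1b and 2.46 for Oasl2. They were 1.72 for Ddx58, 3.23 for Ifih1 and 2.45 for Tlr3 among the genes of double-stranded RNA, and 2.57 for Stat2, 1.66 for Irf9, 4.08 for Irf7 and 4.33 for Usp18 in the interferon route. Without the block none of these differences passed. Oasl1 met the filter on low counts only in LPS libraries, so its pass describes the gene and is not support for a stage difference. In embryonic PBS libraries Oasl1 had 4, 1 and 18 counts and Oas1b had 3, 4 and 13.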

How the results depend on the processing

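The direction of the LPS response of all 7 OAS genes was kept in both stages under all alternatives that gave a value; in adult stroma fitted alone only 5 of the 7 were tested, without Oas1g and Oas2. Shares of all tested genes called, in either direction, stand in parentheses. In embryonic stroma, where 4 were called, 7 were called with the replicate block (3.41%), with each stage fitted alone with the block (3.04%), by DESeq2 (2.91%), by the likelihood ratio test (2.89%), and with the block without culture 3 (2.85%); 0 with each stage alone, where 4 of 12620 genes were called at all, and 2 at an adjusted p under 0.01 (0.790%). Leaving out 1 library gave 2 to 6. In adult stroma, against 0, the block (1.62%), each stage alone with it (4 of 5 tested, 1.55%), and the block without culture 3 (1.73%) gave 4; each stage alone (3 of 5 tested, 0.989%), DESeq2 (1.3%) and leaving out culture 3 (0.883%) gave 3; the likelihood ratio test gave 2 (1.23%); leaving out 1 library gave 0 to 1. For the interaction, against 0, the block called 3 (0.844%), DESeq2 (0.192%), the likelihood ratio test (0.192%) and leaving out culture 3 (0.137%) each 2, and the block without culture 3 5 (0.921%); leaving out 1 library gave 0. Between stages with PBS, DESeq2 (11.9%), the likelihood ratio test (9.03%) and leaving out culture 3 (3.87%) each called 2, and leaving out 1 library 0. With LPS, against 5, none (0) was called at an adjusted p under 0.01 (0.736%), and 0 to 7 when 1 library was left out, 3 without any 1 of the adult PBS libraries.

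Of the double-stranded RNA list, 3 in the embryonic comparison, 5 were called with the block (also each stage alone, and without culture 3), by DESeq2, by the likelihood ratio test, with no fold threshold and without culture 3, and 0 with each stage alone; leaving out 1 library gave 1 (without embryonic PBS library 1) to 6. In the adult comparison, against 0, 1 was called with each of the blocks, each stage alone, DESeq2 and without culture 3, and 0 with 1 library left out. Of the interferon list, 7 in embryonic stroma, 0 were called with each stage alone, and 3 to 7 with 1 library left out, 3 without embryonic PBS library 1. In adult stroma, against 1, 3 were called with the block, with the block without culture 3, by DESeq2 and by the likelihood ratio test, 2 with each stage alone (with or without the block), no fold threshold and without culture 3, 0 at an adjusted p under 0.01, and 0 to 2 with 1 library left out. The shares of all tested genes called are those given above for the OAS genes in the same fits. The others were 2.75% (embryonic) and 0.606% (adult) with no fold threshold, 1.45% (embryonic) without culture 3, and 0.115% (adult) at an adjusted p under 0.01. With 1 library left out the shares ran from 0.642% to 2.31% (embryonic) and from 0.0306% to 0.694% (adult). Why these counts moved was not tested.

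The interaction of Oas1g changed sign: it was 0.032 by DESeq2, 0.34 without culture 3 with or without the block, and -1.87 to 1.43 when 1 library was left out, the last without embryonic PBS library 3. The PBS stage difference of Oasl2 was -1.02 without culture 3 and ran from -1.02 (without embryonic PBS library 3) to 1.09. The interactions ran from -0.47 to 3.17 for Zbp1 and from -0.021 to 1.30 for Irf1, lowest without embryonic LPS library 3. With no normalization factors the median of all genes shifted by -0.13 (log2) in the embryonic comparison; the other size factors moved no median by over 0.1. Other filters and counts on either strand left the counts of called OAS genes within 1.5 times. At 0 to 3 counts, as for Oas1g in adult stroma, depth does not allow a fold to be measured.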
